A study of Mus musculus with 34 samples.

Results

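The genes described here encode subunits of complexes I to IV of the mitochondrial respiratory chain, read in mouse fetal liver that lacks one or more of the pocket proteins Rb1, p107 and p130, the last 2 encoded by Rbl1 and Rbl2. The list holds 43 genes chosen by name, and 42 of them had a probe set among the 18193 genes that the arrays could name: 25 of complex I, 4 of complex II, 6 of complex III and 7 of complex IV. Cox7b was not analysed here. Each gene was read from its brightest probe set, meaning the one with the highest mean signal over all arrays, and all 42 were among the 12723 genes tested.

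The respiratory chain sits in the inner mitochondrial membrane and passes electrons from NADH, through complex I, or from succinate, through complex II, to ubiquinone, on to complex III and cytochrome c, and finally to oxygen at complex IV. Complexes I, III and IV pump protons as they do so, and ATP synthase uses the resulting gradient. Most subunits are encoded in the nucleus and a few of the core subunits in mitochondrial DNA. Fetal liver at midgestation is chiefly a blood-forming organ, and the red cell precursors that fill it lose their mitochondria as they mature. Pocket proteins bind E2F transcription factors and repress their target genes.

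Total RNA from freshly isolated, unfractionated, untreated livers was hybridised to 34 Affymetrix arrays of 1 colour, 1 array a sample. The labels give embryonic day 14.5, and the design text gives days 13.5 to 14.5. The groups were wild type (2 arrays), p107 KO (1), p130 KO (3), p107;p130 DKO (6), Rb1 KO (2), Rb1;p107 DKO (5), Rb1;p130 DKO (9) and Rb1;p107;p130 TKO (6), where KO, DKO and TKO stand for single, double and triple knockout. The alleles, any Cre driver, the strain and any pooling of animals are not given in the sources used here. Nothing in the labels ties a replicate to a separate animal, so each p-value reflects the scatter of these samples alone, which may be technical. In unfractionated liver, fewer cells of a type and less RNA per cell cannot be told apart.

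The targeted genes checked the labels first. Rb1 signal ran from 5208 to 9085 on the 12 arrays carrying the gene and from 756 to 1746 on the 22 that had lost it. Rbl1 ran from 1185 to 2713 on 16 arrays with p107 and from 43.9 to 139 on 18 without. Rbl2 ran from 246 to 481 with p130 and from 106 to 265 without, so the last ranges overlapped. Array totals were set by the authors' scaling. The lowest signal of any of the 42 on any array was 1599.8, and 38 of the 42 lay above the 90th percentile of brightness. Erythroid markers, whose summed signal ran from 112489 to 183790, and hepatocyte markers, from 129667 to 219606, were abundant on all arrays, whereas lymphoid markers summed to 171 to 417.

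The arrays were also sorted into groups that the labels do not record. The ratio between the brightest and second brightest probe set of the same gene, over 2972 genes that left out the 42, split the arrays into groups of 15, 10 and 9, called array groups 1, 2 and 3. These are inferred from the signals and are no recorded batch. The number of groups was set to 3 beforehand, so the split does not show how many there are. Membership was weak for some arrays, with a lowest mean correlation to the own group of 0.182, for replicate 2 of the TKO. They were uneven across genotypes: 4 of the 5 Rb1;p107 DKO arrays were in array group 2, no Rb1;p130 DKO array was, and 3 of 6 TKO and 4 of 9 Rb1;p130 DKO arrays were in array group 3. Array 9 of the Rb1;p130 DKO correlated least with the other arrays (median r = 0.945).

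The 42 genes varied little from sample to sample. On every array 41 of the 42 stayed within 2-fold of their own mean signal, and Ndufs8 was the exception. Mean signals in complex I ran from 2049.8 for Ndufs4, an accessory subunit, to 11549.6 for Ndufb9, in complex II from 3909 for Sdhc to 7132 for Sdhb, in complex III from 5149 for Uqcrq to 27416 for Uqcrb, and in complex IV from 5535 for Cox8a to 27368 for Cox6a1. Probe sets differ in how brightly they hybridise, so these ranges do not order the genes by expression. Array group took a median of 37.6% of a member's variance in log2 signal and genotype took 28.4%. Both shares come from the same 34 arrays and overlap, because array group and genotype are partly tied. They are also not on an equal footing. A share grows with the number of groups even where nothing differs, and there were 8 genotypes against 3 array groups.

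Across all genetic backgrounds, 3 complex I genes were lower where Rb1 was lost: Ndufb2, Ndufb6 and Ndufb10, accessory subunits of the membrane arm, the part of the complex that moves protons. Their log2 differences were between -0.26 and -0.24. All 25 complex I genes had a negative difference, with a median of -0.11 on the log2 scale, against -0.02 for all genes tested. No gene of complexes II, III or IV passed the test in either direction.

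The upstream sequences of these 3 genes are shown because these members passed the test. Each is the 250 bases before the annotated start in RefSeq on GRCm38.p6, written 5′ to 3′ on the gene's own strand, with a match to a searched motif in capitals.
Ndufb2, chr6:39592315-39592564, plus strand: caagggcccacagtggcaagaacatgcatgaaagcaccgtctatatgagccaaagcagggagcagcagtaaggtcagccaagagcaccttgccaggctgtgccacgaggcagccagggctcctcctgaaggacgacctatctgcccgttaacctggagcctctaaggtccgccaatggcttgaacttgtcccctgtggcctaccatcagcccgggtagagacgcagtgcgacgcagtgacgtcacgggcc
Ndufb6, chr4:40279422-40279671, minus strand: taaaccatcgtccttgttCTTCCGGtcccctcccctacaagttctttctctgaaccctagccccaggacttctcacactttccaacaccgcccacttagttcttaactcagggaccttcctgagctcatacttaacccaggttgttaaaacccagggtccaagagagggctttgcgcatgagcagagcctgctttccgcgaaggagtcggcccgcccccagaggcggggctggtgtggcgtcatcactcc
Ndufb10, chr17:24724424-24724673, minus strand: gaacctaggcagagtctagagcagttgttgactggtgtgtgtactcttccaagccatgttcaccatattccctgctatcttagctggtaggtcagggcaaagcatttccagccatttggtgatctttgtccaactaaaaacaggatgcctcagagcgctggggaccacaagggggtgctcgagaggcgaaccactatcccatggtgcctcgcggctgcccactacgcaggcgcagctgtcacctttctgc
The single match, in Ndufb6, is the ETS motif read on the opposite strand, 232 bases before the start. The promoters of a chromosome were left out of the search, for the members and for all promoters alike, and each gene was read from its first listed start. Within these limits, RefSeq promoters were available for 32 of the 42 genes. Motifs were searched on both strands as plain letters: E2F as TTTNNCGC, ETS as CCGGAAG, YY1 as AAGATGGC, and a core of the nuclear respiratory factor NRF1 site. The E2F letters occurred upstream of 5 members, Cox5a, Cox5b, Cox8a, Ndufs7 and Sdhd, or 15.6% of 32, against 4.4% of 27025 promoters of the same length. The NRF1 letters were upstream of Cox6a1, Ndufa5, Ndufa8, Sdha and Sdhd (15.6% against 3.9%), and the ETS letters upstream of Cox6a1, Ndufb6, Ndufb7, Ndufs3 and Sdhd (15.6% against 7.1%). The YY1 letters were upstream of 0 of 32 members and 1.6% of all promoters. Sdhd held 3 of the 4 motifs. A match of letters is a description of the window and shows no bound factor.

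The question of what Rb1 loss does was read from an additive fit, in which limma estimated the effect of losing each pocket protein over all backgrounds, on log2(signal + 32), comparing 22 arrays without Rb1 with 12 that carry it. A gene is called where its p, adjusted by Benjamini and Hochberg's method over all 12723 genes, is under 0.05. Of the 42 members, 3 were called, all lower, beside 2.26% of all genes tested called in either direction and 0.511% called lower. A further 5 complex I genes had an unadjusted p under 0.05, all lower, where 11.3% of all genes did in either direction. Higher calls, at 1.75% of all genes, included no member.

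Ndufb2 gave signals of 5386 and 3905 in wild type, 4345 in the p107 KO, and 4545, 4548 and 5148 in the p130 KO, and its p107;p130 DKO arrays ran from 3947 through a median of 4212 to 4916. Without Rb1 it gave 4313 and 3386 in the Rb1 KO and 4396, 3095, 4092, 3477 and 3976 in the Rb1;p107 DKO. The Rb1;p130 DKO ran from 3796 through 3957 to 4591 and the TKO from 2801 through 3431 to 4520. The lowest arrays were TKO arrays, and the sets with and without Rb1 overlapped, with 19 of the 22 arrays lacking Rb1 below the mean of those that carry it. The difference was -0.25 ± 0.07 (SE) on the log2 scale, a 1.19-fold lower signal (limma, adjusted p = 0.0254).

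Ndufb6 showed the most complete separation. Its signals were 6959 and 6224 in wild type, 5535 in the p107 KO, and 8062, 5856 and 7724 in the p130 KO, with 5807, 6672 and 7084 as lowest, median and highest of the p107;p130 DKO. Without Rb1 they were 5386 and 5581 in the Rb1 KO and 6000.4, 5317, 5595, 5871 and 5467 in the Rb1;p107 DKO. The Rb1;p130 DKO ran from 4093 through 5557 to 6383 and the TKO from 4039.5 through 5831 to 6329. All 22 arrays without Rb1 lay below the mean of the 12 that carry it, although the ranges still overlapped between 5535 and 6383. The single p107 KO array, at 5535, lay within the range of the Rb1;p107 DKO. Ndufb6 differed by -0.24 ± 0.06 (SE) on the log2 scale (limma, adjusted p = 0.0321).

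Ndufb10 had the largest difference of the 3 and the least stable call. It gave 4755 and 5944 in wild type, 5181 in the p107 KO, and 6122, 3809 and 6797 in the p130 KO, and ran from 4846 through 5324 to 5736 in the p107;p130 DKO. The Rb1 KO gave 4640.2 and 3641 and the Rb1;p107 DKO 4572, 4263, 5731, 4939 and 4896, while the Rb1;p130 DKO ran from 3532 through 4492 to 5679 and the TKO from 3845 through 4113 to 4936. One p130 KO array was among the lowest of all, and 20 of 22 arrays without Rb1 lay below the mean of the others. The difference was -0.26 ± 0.07 (SE) on the log2 scale (limma, adjusted p = 0.0463).

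**Figure D1:**
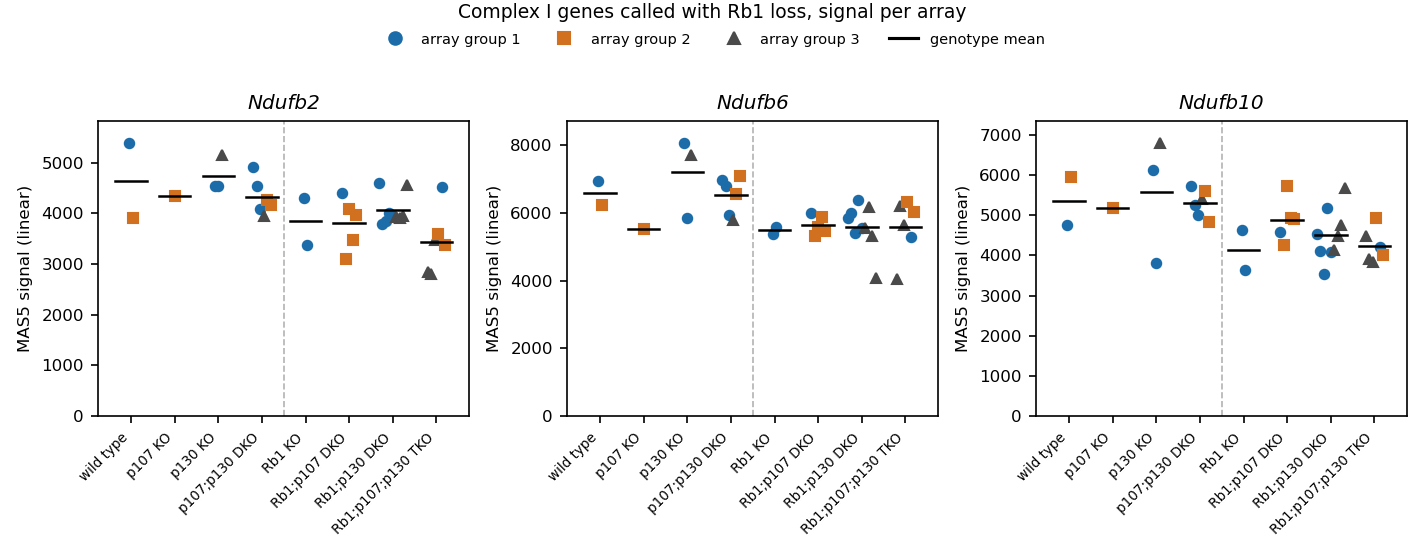
Signal on each array (linear scale, from 0) of Ndufb2, Ndufb6 and Ndufb10 by genotype, with bars at the genotype means, colours for the array groups and a dashed line between genotypes with and without Rb1. The genotypes lacking Rb1 sit lower as a set, and single arrays of both sets overlap in all 3 genes.

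The listed core subunits of complex I, most of which hold the flavin or iron-sulfur centres, did not pass the test with their brightest probe sets. Ndufv1, which binds NADH, differed by -0.18 on the log2 scale, and Ndufs7 and Ndufs1 by -0.12 and -0.09. Ndufs3 and Ndufv2 differed by -0.08 and -0.06. Ndufs8 had the largest difference of these core subunits and the widest error (-0.22 ± 0.23), and was at 0.01 with array group as a block. Dimmer probe sets of these core subunits ran from -0.36 ± 0.09 (SE) for Ndufv2 to 0.35 ± 0.20 for Ndufs8. Between them, others were at -0.23 ± 0.09 for Ndufv1, -0.21 ± 0.07 for Ndufs8 and -0.07 ± 0.08 for Ndufs7. Among accessory subunits Ndufc1 came nearest to a call (-0.16 ± 0.05, adjusted p = 0.146), followed by Ndufb8 (-0.21 ± 0.08, adjusted p = 0.262). Ndufa4, listed here with complex I and now regarded as a subunit associated with complex IV, differed by -0.06. The members with the smallest differences in the list of 25 were Ndufa6 (-0.04) and Ndufa2 (-0.04).

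In complex II, which oxidises succinate, Sdhb, the iron-sulfur subunit, differed by -0.08 ± 0.07 (adjusted p = 0.755) and Sdha, the flavoprotein, by -0.05 ± 0.06. Of its 4 genes 3 were negative, and Sdhd, a membrane anchor, was at 0.03. In complex III, Uqcrfs1, the Rieske iron-sulfur protein, differed by -0.10 ± 0.06 (adjusted p = 0.592) and Uqcrc1, a core protein, by -0.05 ± 0.07, with 5 of 6 negative and a median of -0.03. In complex IV, Cox5a had the largest difference at -0.11 ± 0.06 (adjusted p = 0.493), Cox6c was at -0.04 ± 0.05, and 4 of 7 were negative. For 41 of the 42 members the 95% confidence interval lay within a 1.5-fold change in either direction, and Ndufs8 was the exception. With the second brightest probe set Cox6c was at 0.02, and with the mean of all probe sets Sdha was at 0.005. Uqcrc2, in complex III, was at -0.0002 with its brightest probe set and at -0.27 ± 0.08 (SE) with its second brightest, which was not called.

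**Figure D2:**
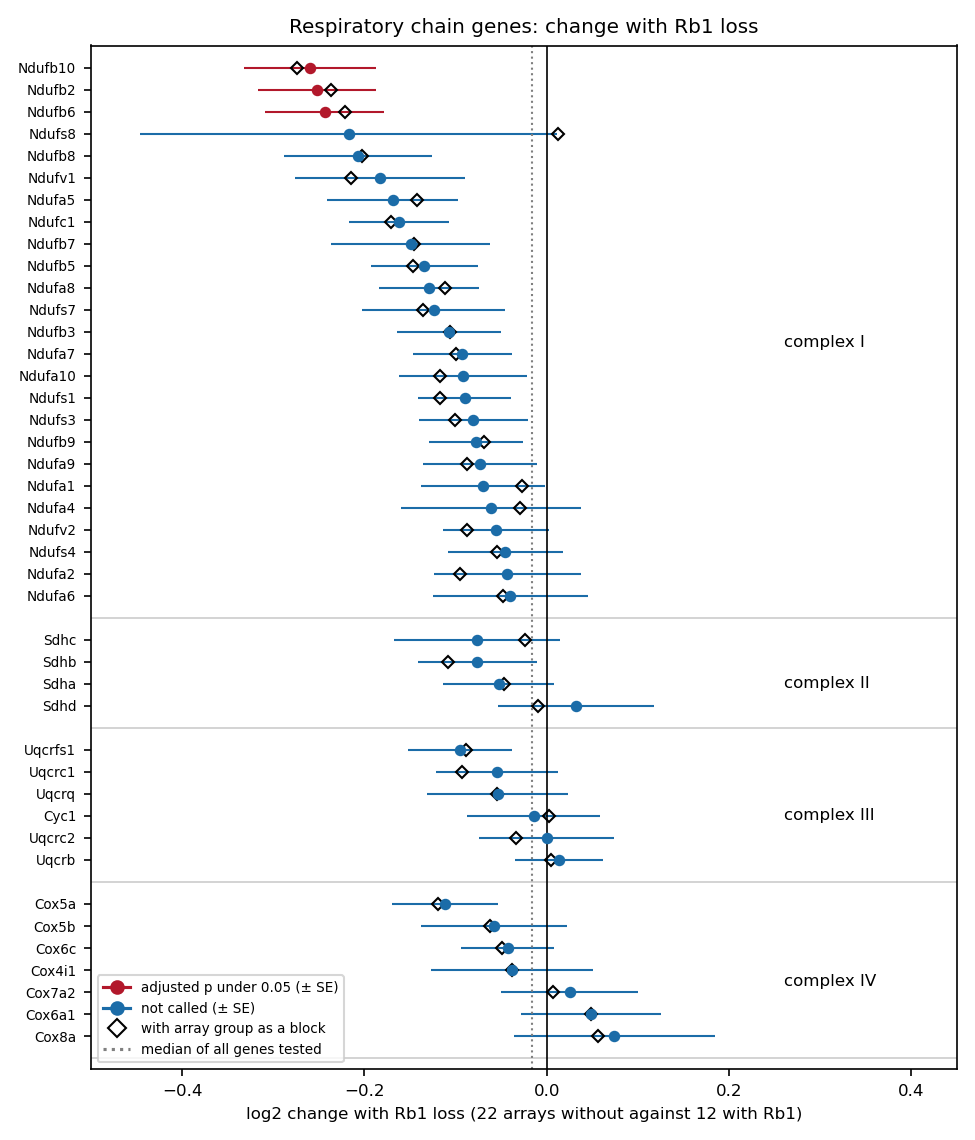
Log2 difference between arrays without and with Rb1 for each of the 42 genes (points, bars ± SE), by complex, with open diamonds for the fit that adds array group as a block and a dotted line at the median of all genes tested. All 25 complex I points lie left of 0, from -0.26 to -0.04, while complexes II to IV straddle it.

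Averaged over its 25 genes, complex I stood at 12.46 ± 0.08 (SD, n = 22) without Rb1 and 12.59 ± 0.07 (SD, n = 12) with Rb1, in mean log2(signal + 32). By genotype its mean was highest in wild type (12.62 ± 0.02, n = 2) and lowest in the TKO (12.41 ± 0.09, n = 6) and Rb1 KO (12.42 ± 0.10, n = 2). Between them lay the p130 KO (12.60 ± 0.10, n = 3), the p107;p130 DKO (12.58 ± 0.07, n = 6), the single p107 KO array (12.53), the Rb1;p107 DKO (12.52 ± 0.07, n = 5) and the Rb1;p130 DKO (12.47 ± 0.06, n = 9). Neighbours in that order were closer together than the spread between arrays, with a pooled SD of 0.08. The same means for complex II were 12.29 ± 0.12 without and 12.33 ± 0.14 with Rb1, for complex III 13.22 ± 0.10 and 13.25 ± 0.08, and for complex IV 14.03 ± 0.11 and 14.04 ± 0.11.

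**Figure D3:**
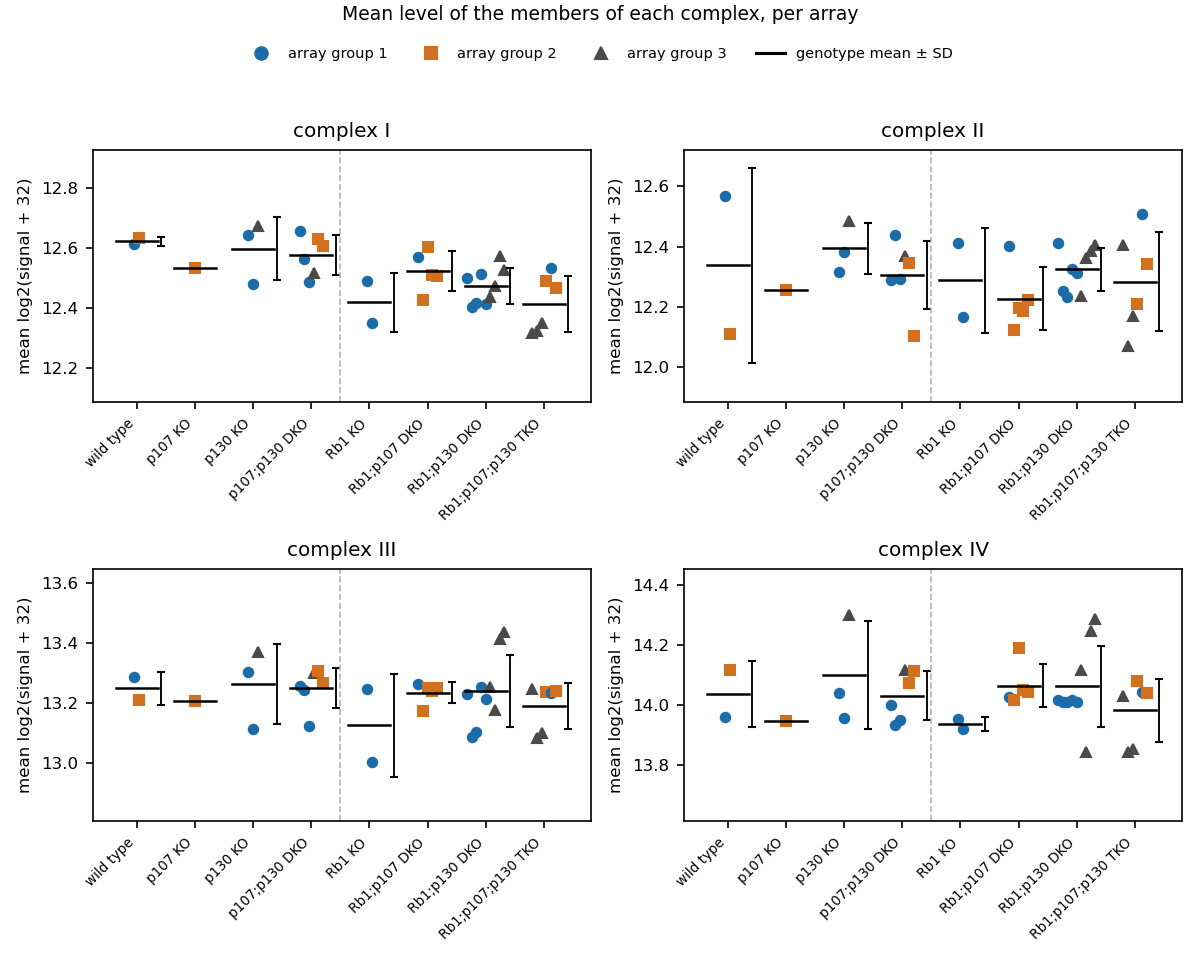
Mean log2(signal + 32) of the genes of each complex on each array by genotype, with genotype means ± SD and colours for array groups; the axes do not start at 0. Complex I is lower in the genotypes right of the dashed line, which lack Rb1, whereas complexes II to IV spread as widely within genotypes as between them.

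Array group and sex moved with genotype, so the Rb1 comparison was repeated within them. With array group as a block the same 3 genes were called, beside 4.40% of all genes, and 24 of 25 complex I genes were negative with a median of -0.11. Within array group 1 (9 arrays without Rb1 against 6 with) 23 of 25 were negative, within array group 2 (6 against 4) 20, and within array group 3 (7 against 2) 21. Ndufb2 differed by -0.19, -0.26 and -0.36 in the 3 array groups, Ndufb6 by -0.25, -0.08 and -0.37, and Ndufb10 by -0.22, -0.16 and -0.46. By sex, read from Xist and Y-linked genes, 23 of 25 were negative on the 17 Xist arrays and 24 of 25 on the 17 Y arrays. With array group and sex as a joint block, 2 of the 3 genes were called, beside 3.21% of all genes, and Ndufb2 was not (-0.21, adjusted p = 0.0589).

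The calls leaned on the choice of probe set. A further fit used the second brightest probe set where its mean signal was at least 100, as for 26 of the 42 members. The other members, Ndufb10 among them, kept their brightest. In that fit 0 of 42 members were called, beside 1.91% of all genes. Ndufb2 was at -0.15 (limma, adjusted p = 0.412), Ndufb6 at -0.18 (adjusted p = 0.530) and Ndufb10, which has 1 probe set, at adjusted p = 0.0514. With the mean of all probe sets Ndufb10 alone was called, beside 2.37% of all genes. The direction was shared: 23 of the 26 other complex I probe sets with a mean signal of at least 100 were negative, with a median of -0.11. Leaving out 1 array at a time, the count of called members ran from 0, without replicate 1 of the p107;p130 DKO, to 3. Ndufb2 lost its call without that array or wild type replicate 1, and Ndufb6 lost it in 6 of 34 cases. Ndufb10 lost it in 25 of 34, with adjusted p up to 0.113.

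The comparisons of single genotypes asked the same question with fewer arrays, and none called a member. The TKO against the p107;p130 DKO (6 against 6) called 0 of 42 beside 0.377% of all genes, and all 25 complex I genes were negative, with a median of -0.15 against -0.01 for all genes. Ndufb2 was nearest to a call at -0.34 ± 0.11 (limma, adjusted p = 0.268). Of the other complexes, Cox5a differed by -0.19 ± 0.09, Uqcrq by -0.17 ± 0.13 and Sdhb by -0.09 ± 0.11. Both other pocket proteins are absent on each side, but the sides also differ in array group (1, 2 and 3 TKO arrays in array groups 1, 2 and 3, against 3, 2 and 1) and in sex (4 of 6 Xist arrays against 1 of 6). With array group as a block 23 of 25 complex I genes were negative, with a median of -0.17, and with array group and sex as a joint block 22, with a median of -0.16.

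With p107 present and p130 absent, the Rb1;p130 DKO was set against the p130 KO (9 against 3), sharing no array with the previous comparison. The sides also differ in sex, with 5 Xist and 4 Y arrays in the Rb1;p130 DKO against 3 Xist arrays in the p130 KO. Array groups 1, 2 and 3 hold 5, 0 and 4 of the Rb1;p130 DKO arrays and 2, 0 and 1 of the p130 KO arrays. This comparison called 0 of 42 beside 0.118% of all genes, and 24 of 25 complex I genes were negative, with a median of -0.11. Ndufb6 had the largest difference at -0.36 ± 0.12 (limma, adjusted p = 0.609), and Ndufb2 and Ndufb10 were at -0.22 and -0.28. Sdha differed by -0.12 ± 0.12 and was at 0.10 with its second brightest probe set, and Cox5a differed by -0.14 ± 0.11 and Uqcrfs1 by -0.10 ± 0.11. Whether the effect of Rb1 loss depends on p107 was tested as an interaction in livers without p130, which called 0 members and 0 genes of 12723, a background of 0%. At an unadjusted p under 0.05 that test named 0 members and 209 genes, 1.64% of all. Ndufa8 had the largest interaction of complex I at -0.18 ± 0.14, followed in the other complexes by Uqcrq (-0.15 ± 0.20), Sdha (0.12 ± 0.16) and Cox6a1 (0.08 ± 0.19). With the second brightest probe set both of the last turned negative, to -0.15 and -0.21.

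Against wild type, with 2 arrays, the groups could be compared only coarsely. The Rb1 KO called 0 members beside 0.00786% of all genes (1 gene) and had 21 of 25 complex I genes negative, with a median of -0.22. Ndufc1 gave 6069 and 5870 in the Rb1 KO and 7937 and 8444 in wild type, and the difference was -0.45 ± 0.15 (limma, adjusted p = 1.00). With 2 arrays on each side, values often part in this way without any difference between genotypes. Cyc1 and Cox5b both differed by -0.28, with SE 0.20 and 0.22, and Sdhb by -0.24 ± 0.19. Both Rb1 KO arrays are in array group 1, whereas 1 wild type array is in array group 1 and 1 in array group 2. By sex, both Rb1 KO arrays are Y arrays, whereas wild type has 1 Xist and 1 Y array. The differences with array group as a block were -0.44 for Ndufc1, -0.06 for Cyc1, -0.05 for Cox5b and -0.23 for Sdhb. The TKO against wild type called 0 members beside 0.0786% of all genes, with 24 of 25 complex I genes negative and a median of -0.18. Ndufb2 differed by -0.43 ± 0.15 there (limma, adjusted p = 0.683), Sdhc by -0.20 ± 0.22, Uqcrfs1 by -0.15 ± 0.14 and Cox6c by -0.11 ± 0.12. With the second brightest probe set Sdhc was at 0.03 and Cox6c at 0.02. Both comparisons use the same 2 wild type arrays.

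Loss of p107 had a different profile in the fit without array group. It called 1 member, Uqcrq, a small subunit of complex III, as lower, beside 1.14% of all genes called and 0.723% called lower. In that fit the members as a set did not lean: 20 of 42 were negative, with a median of 0.01 against 0.00 for all genes. Cox6c, a complex IV subunit, did not pass (-0.18 ± 0.05, limma, adjusted p = 0.0506), nor did Cox8a (-0.32 ± 0.11, adjusted p = 0.121), Sdhd (-0.23 ± 0.08, adjusted p = 0.154), Ndufs4 (-0.19 ± 0.06, adjusted p = 0.103) and Ndufa4 (-0.24 ± 0.09, adjusted p = 0.192). Uqcrc2, a core protein of complex III, was at 0.18 ± 0.07 (adjusted p = 0.196) and Sdha at 0.03 ± 0.06 (-0.05 with array group as a block). The second brightest probe set of Uqcrc2 was at 0.30 ± 0.08 (SE). With array group as a block its 2 brightest probe sets were at 0.06 and 0.18.

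Uqcrq gave 6334 and 4043 in wild type, 5499, 5473 and 6706 in the p130 KO, and 6089 and 4619.8 in the Rb1 KO, and ran from 5189.6 through 5760.2 to 6494 in the Rb1;p130 DKO. Without p107 it gave 3833 in the p107 KO and 5558, 3387, 4133, 4066 and 4279 in the Rb1;p107 DKO, and ran from 4244 through 5565 to 5731 in the p107;p130 DKO and from 3600.0 through 4567 to 6191 in the TKO. The lowest arrays lacked p107, but they were mostly of array group 2, which had a mean of 4074 ± 409 (SD, n = 10) against 5762 ± 462 (n = 15) in array group 1 and 5323 ± 865 (n = 9) in array group 3. The 1 wild type array in array group 2 stood at 4043 and the 1 Rb1;p107 DKO array in array group 1 at 5558. The p107 difference was -0.28 ± 0.07 (SE) on the log2 scale (limma, adjusted p = 0.0481), and -0.13 (adjusted p = 0.420) with array group as a block. Within array groups 1, 2 and 3 it was 0.00, -0.05 and -0.33. The call was lost in 21 of the 34 fits that left out 1 array.

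Cox8a, Sdhd and Cox6c split the same way. Cox8a stood at 6421 ± 487 (SD, n = 15) in array group 1, 3740.4 ± 764 (n = 10) in array group 2 and 6050.4 ± 808 (n = 9) in array group 3, and Sdhd at 4425 ± 385, 3088 ± 353 and 4729 ± 469. For Cox6c the values were 15292 ± 812, 12671 ± 1231 and 14862 ± 1195. Array group accounted for 80.3% of the variance of Cox8a and 77.5% of that of Sdhd and of Cyc1, and for over 50% in 18 of the 42 members. With array group as a block the p107 difference became -0.03 for Cox8a, -0.03 for Sdhd, -0.10 for Cox6c, -0.08 for Ndufs4 and -0.04 for Ndufa4, and 0 members were called beside 0.660% of all genes. In that fit 35 of the 42 members were negative, with a median of -0.04 against 0.02 for all genes. Within array group 1 (5 arrays without p107 against 10 with), 11 of 42 members and 4 of 25 complex I genes were negative. The members' median there was 0.05. Within array group 3 (4 against 5), 38 and 23 were negative, with a members' median of -0.19. In array group 2, where 1 array carries p107, the members' median was -0.03.

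**Figure D4:**
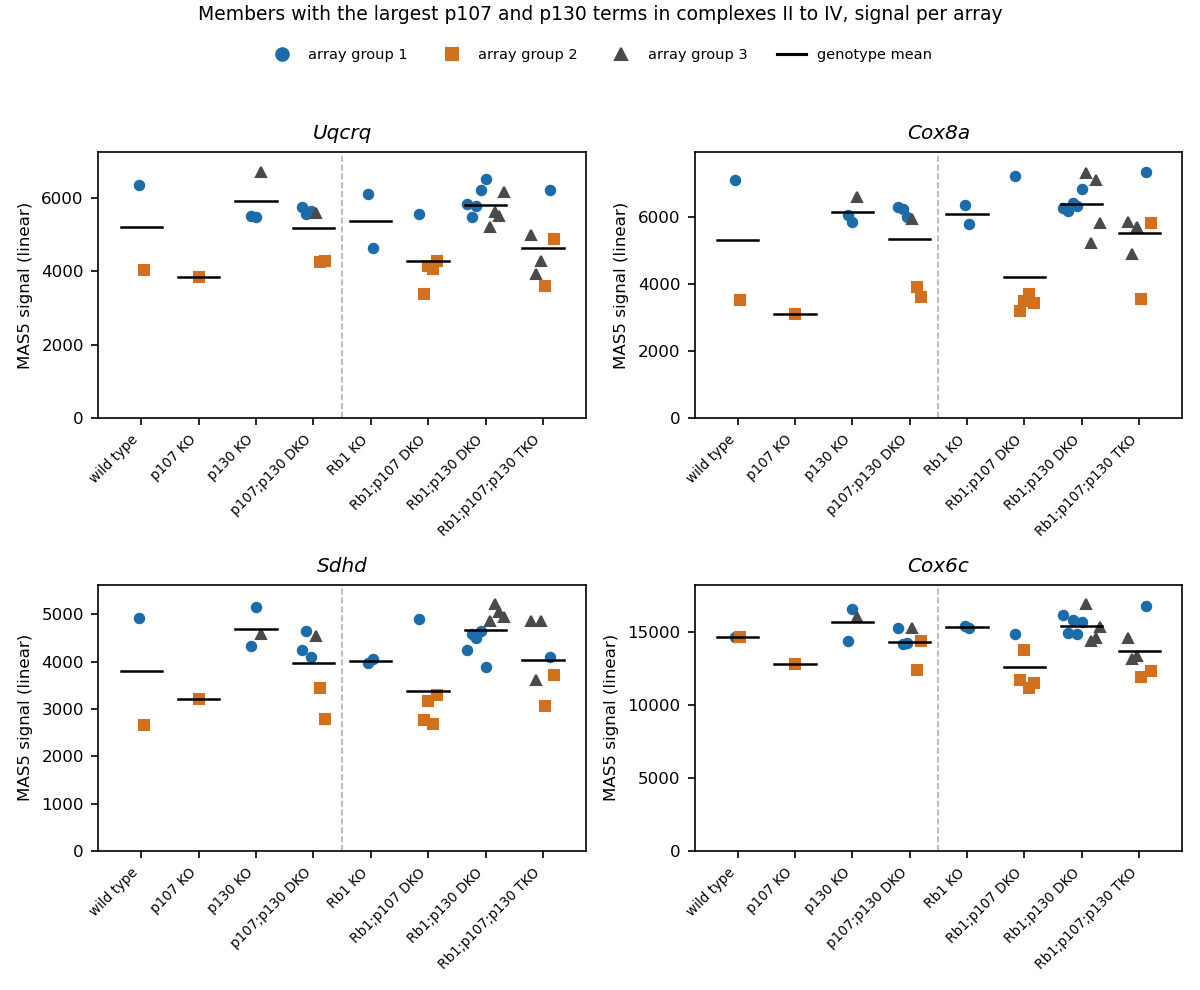
Signal on each array (linear scale, from 0) of Uqcrq, Cox8a, Sdhd and Cox6c by genotype, with colours and shapes for the array groups and bars at the genotype means. Arrays of group 2 are the low ones in wild type, the p107;p130 DKO and the Rb1;p107 DKO alike for Uqcrq, Cox8a and Sdhd.

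Loss of p130 called 0 members beside 0.0157% of all genes (2 genes). At an unadjusted p under 0.05, 4 members were higher and 3 lower, where 10.1% of all genes passed in either direction. Cox8a was at 0.35 ± 0.12 and Sdhd at 0.28 ± 0.09 (both limma, adjusted p = 0.396), Uqcrq at 0.19 ± 0.08 (adjusted p = 0.443), and Uqcrc1 at 0.14 ± 0.07. Lower values were those of Ndufs8, a core iron-sulfur subunit of complex I (-0.59 ± 0.24, adjusted p = 0.426), Ndufb7 (-0.20 ± 0.09) and Sdha (-0.08 ± 0.06), with Cox6c at 0.10 ± 0.05. Ndufb7 was at 0.10 with its second brightest probe set. With array group as a block Cox8a was at 0.11, Sdhd at 0.05, Uqcrq at 0.08 and Ndufs8 at -0.05.

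Ndufs8 stood apart from the other members. Its brightest probe set ran from 2036 to 7570.2 on the 9 arrays of array group 3 and from 7785 to 13171 on the other 25, so the sets did not overlap. Its second brightest probe set, with a mean signal of 8927, differed with p130 loss by -0.11 ± 0.09 (SE), and the next by -0.14 ± 0.09. Its other 3 probe sets, all dimmer, were at 0.06 ± 0.07, 0.05 ± 0.08 and 0.43 ± 0.21. The probe sets of this gene therefore disagreed in size and direction, and the widest errors of every comparison belonged to its brightest one.

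The remaining genotype comparisons addressed p107 and p130 with Rb1 fixed. The p107;p130 DKO against the p130 KO called 0 members beside 0.0236% of all genes, and the genes with the largest moderated statistic in complexes I to IV were Ndufa4 (-0.28 ± 0.19), Sdhd (-0.26 ± 0.18), Uqcrq (-0.19 ± 0.16) and Cox6c (-0.13 ± 0.10). Uqcrq was at 0.09 with the mean of its probe sets. The TKO against the Rb1;p130 DKO also called 0 beside 0.0236%, with Uqcrq at -0.34 ± 0.12 (limma, adjusted p = 0.635), Ndufb2 at -0.26 ± 0.10, Sdhd at -0.22 ± 0.13 and Cox6c at -0.18 ± 0.08. Each of these sets a group lacking p107 against one that has it, with p130 absent throughout. The sides also differ in sex and in array group. There were 1 Xist and 5 Y arrays in the p107;p130 DKO against 3 Xist arrays in the p130 KO. The TKO had 4 Xist and 2 Y arrays and the Rb1;p130 DKO had 5 and 4. Array groups 1, 2 and 3 hold 3, 2 and 1 of the p107;p130 DKO arrays and 2, 0 and 1 of the p130 KO arrays. They hold 1, 2 and 3 of the TKO arrays and 5, 0 and 4 of the Rb1;p130 DKO arrays. The share of variance between array groups was 77.5% for Sdhd, 67.0% for Ndufa4, 64.3% for Uqcrq, 57.5% for Cox6c and 17.6% for Ndufb2.

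Loss of p130 on top of Rb1 and p107 was read from the TKO against the Rb1;p107 DKO, which called 0 members beside 0.00786% of all genes. Ndufb8 was at -0.33 ± 0.14, Cyc1, the cytochrome c1 of complex III, at -0.26 ± 0.12, Cox8a at 0.43 ± 0.19 and Sdhd at 0.27 ± 0.15. Array groups 1, 2 and 3 hold 1, 2 and 3 of the TKO arrays and 1, 4 and 0 of the Rb1;p107 DKO arrays. The values with array group as a block were -0.20 for Ndufb8, -0.08 for Cyc1, 0.15 for Cox8a and -0.003 for Sdhd, and with the second brightest probe set Ndufb8 was at 0.15. The direct comparison of the Rb1;p107 DKO with the Rb1;p130 DKO called 0 members beside 0.267% of all genes, yet 6 members were higher and 8 lower at an unadjusted p under 0.05, where 18.3% of all genes passed. Cox8a was at -0.66 ± 0.17 (limma, adjusted p = 0.0622), Sdhd at -0.49 ± 0.14 (adjusted p = 0.0736), Uqcrq at -0.45 ± 0.12 (adjusted p = 0.0683) and Ndufb7 at 0.41 ± 0.13 (adjusted p = 0.106). Without replicate 1 of the Rb1;p107 DKO, the genotype's 1 array in array group 1, 9 members were called, beside 6.39% of all genes. With array group as a block the same differences were -0.13, -0.05, -0.17 and 0.04 for Cox8a, Sdhd, Uqcrq and Ndufb7, each at adjusted p = 0.996. Ndufb7 was at -0.13 with its second brightest probe set. Only array group 1 holds both genotypes, with 1 and 5 arrays.

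Genes that work with the respiratory chain were read by the same Rb1 comparison. Of 33 measured assembly factors, which build and insert the complexes, 0 were called and 30 were negative, with a median of -0.10, Ndufaf7 at -0.18 ± 0.06 (limma, adjusted p = 0.168) and Surf1 at -0.15 ± 0.06. Of 26 mitochondrial ribosomal proteins, which translate the mitochondrial messages, 0 were called and all 26 were negative, with a median of -0.12 and Mrps15 at -0.28 ± 0.09 (adjusted p = 0.0929). Of 16 ATP synthase genes 12 were negative (median -0.07), and of 12 citric acid cycle genes 11 were (median -0.05). The 8 other complex I subunits were all negative, with a median of -0.07. For 15 other genes of complexes III and IV with cytochrome c, summed signals are given. Their median was 76861 without Rb1 (68437 to 96856) and 78320 with it (69588 to 85775). ND5, a complex I subunit encoded in mitochondrial DNA, had a median signal of 24637 without Rb1 (3928 to 47865) and 24347 with it (12311 to 45366). Medians near 0 were found for 13 regulators of mitochondrial biogenesis (-0.01), 14 glycolysis genes (0.04) and 11 mitophagy genes (0.03), with Bnip3 at 0.28 ± 0.12 and Pdk1 at -0.32 ± 0.16, neither called.

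**Figure D5:**
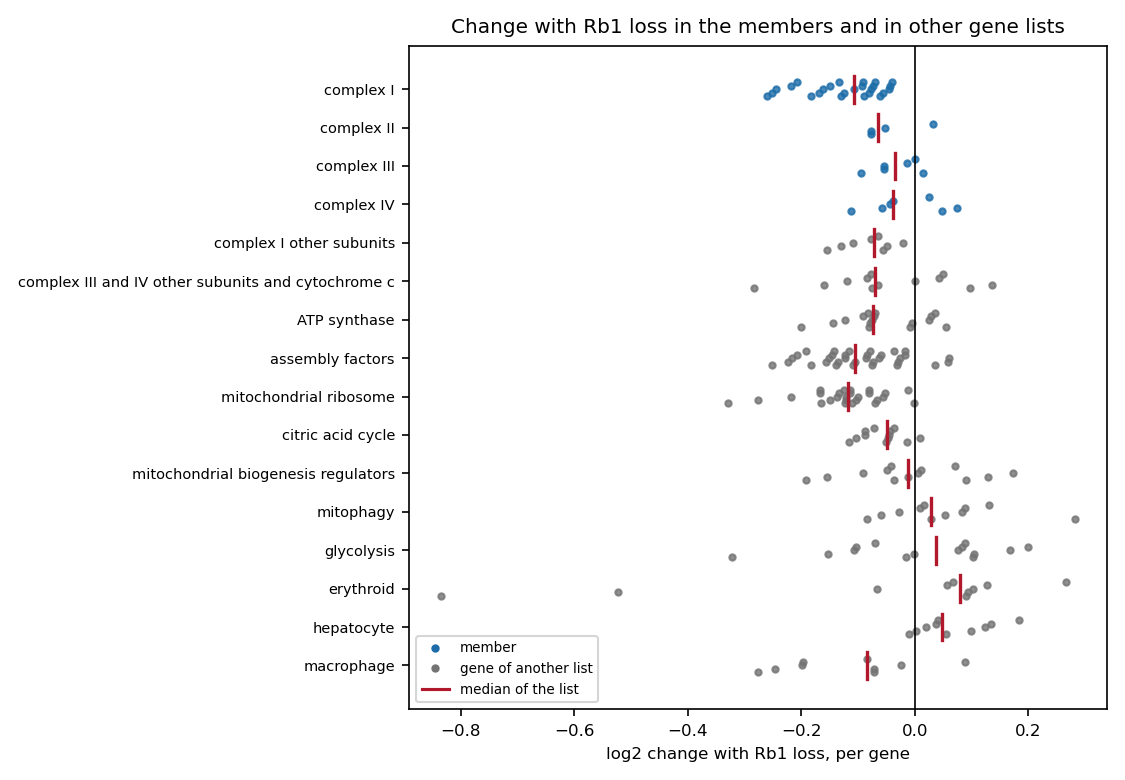
Log2 difference between arrays without and with Rb1 for each gene of the 4 complexes (blue) and of other lists (grey), with red bars at the list medians. The medians of complex I, the assembly factors and the mitochondrial ribosome are at -0.11, -0.10 and -0.12, and the glycolysis and mitophagy medians are above 0.

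The cell makeup of the livers was read beside these values. Of 10 erythroid markers tested, 2 were called lower with Rb1 loss: Epor, the erythropoietin receptor, at -0.83 ± 0.10 (limma, adjusted p = 1.55e-07), and Bpgm, which makes the bisphosphoglycerate of red cells, at -0.52 ± 0.09 (adjusted p = 1.92e-04). The list's median was 0.08, its summed signal ran from 114535 to 180587 without Rb1 and from 112489 to 183790 with it, and 1 of its 11 measured markers was below a signal of 100 on every array. Of 10 hepatocyte markers 9 were positive (median 0.05), with sums of 134325 to 219606 against 129667 to 214476. Of 9 macrophage markers tested 8 were negative (median -0.08), with sums of 8077 to 13569 against 9538 to 16400.1. The part of these markers in the complex I values was not tested.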

How the data were processed

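The deposited table holds 1 intensity per probe set and array on a linear scale, which the authors made with MAS5 in GCOS 1.4, per the submitters' processing notes; background, annotation and scaling settings are not given in the sources used here. The 2% trimmed means of the deposited intensities were 495.4 to 497.7, so arrays are comparable only after such scaling and a shift of all RNA would not show. Each array was scaled to a trimmed mean of 500, and log2(signal + 32) was taken. A gene entered the tests if 2 or more arrays gave it a signal of 100 or higher. Of 45037 probe sets, 34945 named 1 gene in GEO's platform annotation, which can be old, and 932 named several and were left out.

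limma 3.58.1 in R 4.3.3 fitted all 34 arrays, once with a term for each lost pocket protein and once with a mean for each genotype, with moderated tests that let the variance follow the mean signal; values were prepared in Python 3.11.15. p-values were adjusted over all genes tested, and differences are on the log2(signal + 32) scale. Precision is limited by how many arrays there are. The steps were tested on simulated data. Genes named are the called members, the members of each complex with the largest moderated statistic (the leading 2 in the additive terms, 1 elsewhere), those with the highest and lowest mean signal and up to 2 genes of each other list. Ndufs8, and the members set beside these as examples, were named after their values were seen. Alternatives changed the pseudocount, filter, normalization, probe set, variance trend, arrays and blocks. The members, lists and tests were chosen with earlier results of these data known, and array group and sex as a joint block was added after seeing the data.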

Additional observations from a re-analysis of the deposited data

Results flagged for a closer look

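Within genotypes of 4 to 10 arrays, 13 of 112 sets of values for 24 named genes and the complex means had 1 array far from the rest, where chance flags about 1 in 20. Values are log2(signal + 32). Replicate 1 of the Rb1;p107 DKO, the genotype's 1 array in array group 1, accounted for 4: it was highest for Ndufa4 (13.19, next 12.61) and Cox8a (12.82, next 11.87) and lowest for Cyc1 (13.51, next 13.87) and Cox6a1 (14.53, next 15.00). In the same genotype replicate 2 was lowest for the complex III mean (13.17) and replicate 3 highest for the complex IV mean (14.19). Replicate 9 of the Rb1;p130 DKO was lowest for Ndufa4 (12.18, next 12.79) and Ndufb6 (12.01, next 12.38). In the p107;p130 DKO, replicate 3 was lowest for Ndufc1 (12.74) and for the complex III mean (13.12), replicate 4 highest for Uqcrc1 (13.38), and replicate 5, in array group 2, lowest for Cox6c (13.60). Replicate 1 of the TKO, in array group 3, was lowest for Ndufs8 (11.01, next 12.74). The part of array group in these values was not tested.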

How the results depend on the processing

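Over 13 alternatives, 23 to 25 of 25 complex I genes were negative for Rb1 loss, with medians from -0.150 to -0.097. For p107 loss 10 to 21 were negative, with medians from -0.043 to 0.031, and for p130 loss 9 to 17, with medians from -0.045 to 0.022, so both of these medians changed sign. Counts of called members were less stable. The number of all genes called is given in brackets. For Rb1 loss the count of 3 (288 of 12723 genes) was 4 with quantile normalization (319 of 12720). It was 2 with no filter (249 of 18193), with no variance trend (260 of 12723) and with the joint block (409 of 12723). The count was 1 with the mean of all probe sets (281 of 11854), 0 with the second brightest (243 of 12723), and 0 to 3 leaving out 1 array. For p107 loss the count of 1 was 0 with no filter, the mean of all probe sets, the second brightest probe set, no variance trend, the array group block, and the joint block; it was 2 with signals of at least 200 on at least 6 arrays and with quantile normalization, 3 without replicates 8 and 9 of the Rb1;p130 DKO, and 0 to 3 leaving out 1 array. For the Rb1;p107 DKO against the Rb1;p130 DKO the count of 0 was 1 with the stricter filter and with quantile normalization. It was 3 in a fit of those arrays alone, 4 without replicates 8 and 9, and 0 to 9 leaving out 1 array. The count of 0 stood beside 0.267% of all genes and that of 9 beside 6.39%. Shares for the other settings of this pair are not given here, so those counts are not read as results about the members. The labels do not say whether replicate numbers pair the samples. Over 67 pairs of same-numbered arrays the median correlation of deviations was 0.069, from -0.38 to 0.502. Over 380 other pairs the median was -0.009. The replicate block kept 3 calls for Rb1 loss (399 of 12723 genes) and 1 for p107 loss (302 of 12723). It gave 7 for the Rb1;p107 DKO against the Rb1;p130 DKO. Some uncalled values turned sign. With the second brightest probe set, Cox6c became 0.022 for Rb1 loss and 0.022 for the TKO against wild type, Ndufb7 0.097 for p130 loss and -0.128 between those DKOs, Sdha 0.103 for the Rb1;p130 DKO against the p130 KO, Ndufb8 0.155 for the TKO against the Rb1;p107 DKO, Sdhc 0.028 for the TKO against wild type, and, for the interaction, Cox6a1 -0.211 and Sdha -0.145. With the mean of all probe sets, Sdha became 0.005 for Rb1 loss and for the Rb1;p130 DKO against the p130 KO, Uqcrq 0.090 for the p107;p130 DKO against the p130 KO, and Cox6a1 -0.068 for the interaction. Sdha for p107 loss became -0.003 with the replicate block, -0.050 with the array group block and -0.056 with the joint block, and Sdhd for the TKO against the Rb1;p107 DKO -0.003 with the array group block. Cox6a1 for the interaction became -0.053 with a sex term, -0.038 with the joint block and -0.054 to 0.165 leaving out 1 array, and Sdhc for the TKO against wild type ran from -0.567 to 0.176 leaving out 1 array, turning positive without wild type replicate 1. The cause was not tested in any of these. The lowest signal of any member on any array was 1599.8, above the filter of 100.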
